A study of Mus musculus with 6 samples.

Results

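The sarcomere, the contractile unit of the muscle fibre, was examined through 54 genes of the thin filament, the thick filament, titin and the M-band, the Z-disc and the proteins that assemble them or respond to load. The 54 genes were taken by symbol from a list of their roles, out of a table of 24411 genes, and all 54 passed the filter on low counts. RNA was taken from the whole extensor digitorum longus (EDL), a hindlimb muscle of mostly fast fibres. The mice were C57BL/6J and 50 weeks old. The 3 control mice were Akt1/2-floxed, that is, both Akt genes carried sites for Cre recombinase and no Cre was present. The 3 mAktDKO mice were Mlc1f-Cre:Akt1/2-floxed and thus carried the same floxed genes plus Cre. Cre was knocked in behind the promoter of Mlc1f, a fast myosin light chain, which directs Cre to muscle fibres rather than to the other cells of the muscle, and Mlc1f is a transcript of Myl1, which is itself one of the genes examined. Whether the mice carried the knock-in on 1 or both copies of Myl1 is not given in the sources used here.

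Muscle contracts when calcium binds troponin C, troponin I then releases its hold on actin, and tropomyosin, to which troponin T ties the complex, moves aside so that myosin can pull. Mouse limb muscle makes most of these subunits in a fast and a slow version, each from its own gene, and a fibre's set of versions goes with its speed of contraction. EDL consists almost wholly of fast fibres. Here Tnnt3, Tnni2, Tnnc2, Mylpf, Actn3 and Mybpc2 stand for the fast versions, and Tnnt1, Tnni1, Tnnc1, Myl2, Myl3 and Tpm3 for the slow ones.

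Libraries held between 13738795 and 15445523 estimated counts per mouse. Expression is given as CPM, that is, as counts set to a common library total (1e+06) after TMM scaling, and at these depths 3 counts correspond to between 0.18 and 0.227 CPM. Genotypes were compared with edgeR's quasi-likelihood test over 12892 genes, and a gene was called at an adjusted p under 0.01. With 3 mice a group, p-values measure the spread between these mice. Of the targeted genes, Akt2 was at 51.3, 49.1 and 52.7 CPM with mAktDKO and 172, 133 and 143 CPM in controls (log2 fold change -1.55, standard error 0.11, adjusted p = 0.000923). Akt1 was at 58.9, 56.8 and 51.4 CPM and 66.4, 65.5 and 66.5 CPM (log2 fold change -0.25, standard error 0.08, adjusted p = 0.115), so each mAktDKO mouse lay below each control mouse for both genes, for Akt1 not with library totals. The counts are per gene and cannot show how much of the floxed part was lost. All 7 fast fibre markers were detected in every mouse, with Myh4 between 47022 and 55567 CPM over the 6 mice, whereas 3 of 6 cardiac markers had no count in any mouse. The fast fibre markers (Myh4, Myh1, Ckm, Pvalb, Atp2a1, Eno3 and Pygm) had a median log2 fold change of -0.22 (-0.089 with library totals), with all 7 estimates below 0 (6 with library totals) and 6 of 7 markers lower in each mAktDKO mouse than in any control (16.6% of all genes), or 4 with library totals (6.92%).

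The control mice bear the numbers 2 to 4 and the mAktDKO mice 1 to 3, as in the deposited table. The 54 genes together took 21.8% to 25.0% of all counts in the mAktDKO mice and 24.4% to 25.9% in the control mice. Ttn alone, which encodes the giant elastic protein titin, took 10.7% to 14.2% of the counts over the 6 mice. Because the genes weigh this much in a library, the scaling was also computed without sarcomere genes. The median log2 fold change of the 54 genes was then the same to 2 decimals (-0.19), whereas with library totals in place of TMM scaling it was -0.050.

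No member was called at an adjusted p under 0.01 in edgeR's test, at which 3 of the 12892 genes (0.0233%) were called. None was called at the looser adjusted p under 0.05 either, where the share over all genes was 1.18% (0.915% lower and 0.264% higher), and the smallest adjusted p of a member was 0.0557. With no filter on low counts edgeR put 3 members below 0.05, beside 381 of 17360 genes. With at least 10 counts in every mouse it put 2 members there, beside 264 of 12125 genes. Without control mouse 4 it put 1 member there, beside 388 of 13127 genes. At an unadjusted p under 0.05, 21 of the 54 (38.9%) differed, 19 lower and 2 higher in the mAktDKO mice, against 24.5% of all genes, of which 11.4% were higher and 13.1% lower. With single mice left out, 14 to 28 members (13 to 24 lower, 1 to 5 higher) and 1871 to 3386 genes in all passed this p. With library totals in place of TMM scaling, which moved the all-gene median from 0.017 to 0.16 on the log2 scale, the members were split into 15 lower and 4 higher, and the higher share of all genes under this p went from 46.5% to 82.1%. The estimate was below 0 for 42 of the 54 members (32 with library totals) and for 47.5% of all genes, and the median log2 fold change was -0.19 for the members and 0.017 for all genes, or -0.050 and 0.16 with library totals. For 26 members (48.1%) the highest mAktDKO mouse lay below the lowest control, and for 0 members were the groups apart in the other direction, whereas the groups did not overlap for 31.1% of all genes, 16.6% lower and 14.6% higher. With library totals these counts were 15 lower (27.8%) and 2 higher (3.70%), against 6.92% and 26.5% of all genes. Of the 26, Acta1, Tpm2, Tmod1, Tmod4, Mybpc2, Myom2, Myoz1, Ldb3, Xirp2, Smyd1 and Trim55 then overlapped, and Smpx and Capza2 were apart on the higher side. DESeq2's Wald test, the tool of the study, called 10 of the 54 (18.5%) at an adjusted p under 0.01, against 341 of the 9616 genes it adjusted (3.55%, of which 2.61% lower and 0.936% higher). These were Tnni2, Tnnc2, Tpm1, Myl1, Mybpc1, Myom3, Obsl1, Flnc and Trim54, all lower, and Tpm3, which was higher.

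**Figure D1:**
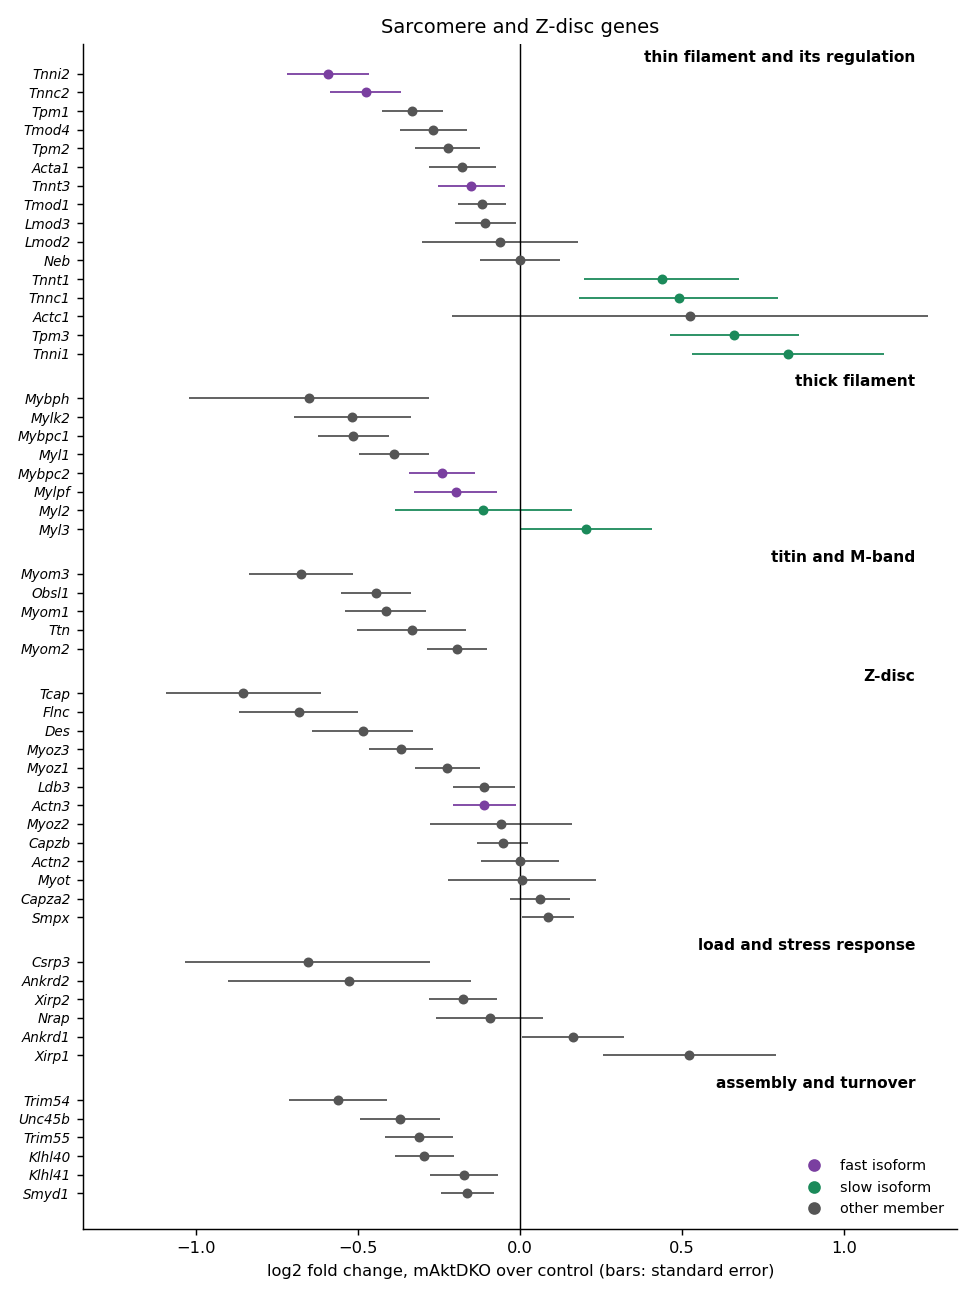
Log2 fold change of each of the 54 genes in mAktDKO over control EDL (horizontal axis, points), with the standard error as bars, grouped by role and coloured by isoform class. With TMM scaling all 6 fast isoforms lie below 0 and 5 of the 6 slow isoforms lie above it, whereas with library totals Actn3 and Myl2 lie above 0.

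Among the 12 isoforms, fast and slow versions lay on opposite sides of 0, apart from the slow Myl2 and, with library totals, the fast Actn3. Outside the 12, the slow-type Mybpc1 and Myoz2 lay below 0 with TMM scaling (log2 fold change -0.52 and -0.06), like their fast counterparts Mybpc2 and Myoz1. All 6 fast isoforms had a lower estimate in the mAktDKO mice (with library totals Actn3 was at 0.024), the median log2 fold change being -0.22 (-0.086 with library totals). Of the 6 slow isoforms 5 had a higher estimate, with a median of 0.46 that went from 0.28 to 0.73 when single mice were left out, and Myl2 lay below 0 (with library totals at 0.042). None of the 12 was called by edgeR at an adjusted p under 0.05, and 5 of them had an unadjusted p under 0.05, as had 24.5% of all genes. These were Tnni2, Tnnc2 and Mybpc2 among the fast isoforms and Tnni1 and Tpm3 among the slow ones. The summed level of the fast isoforms was 23915 to 26901 CPM with mAktDKO and 29339 to 31312 CPM in controls. For the slow isoforms the sums were 247 to 421 CPM with mAktDKO and 230.1 to 306 CPM in controls, so that the groups overlapped. In every mouse, of either genotype, the fast sum was thus many times the slow sum.

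**Figure D2:**
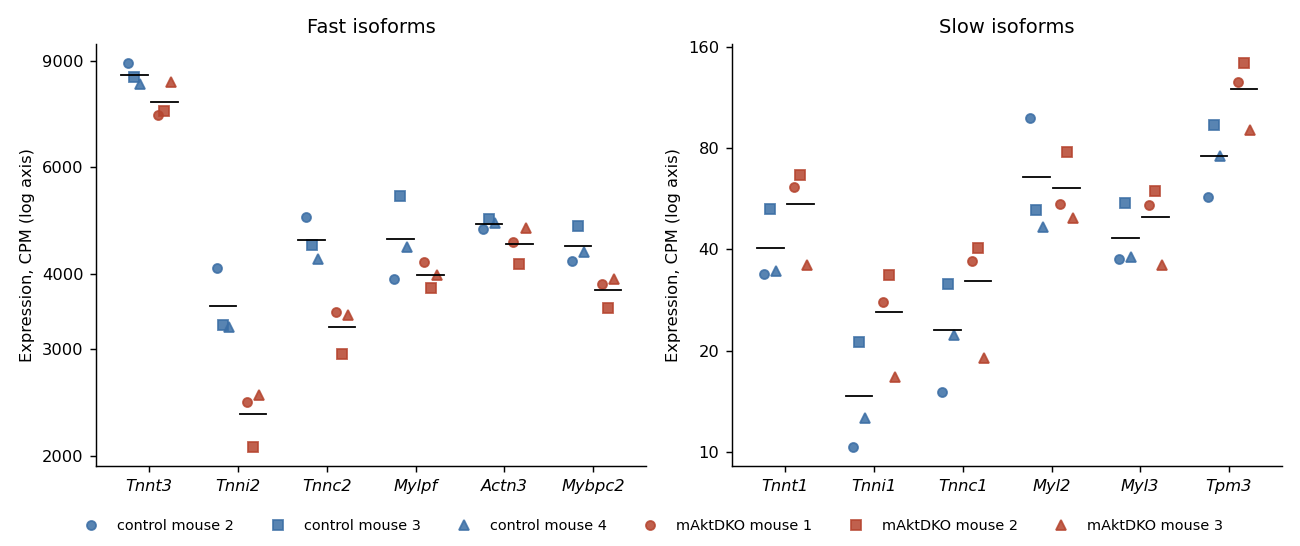
Expression in CPM (log axes that differ between the panels) of the 6 fast (left) and 6 slow isoforms (right), with 1 point per mouse and a line at the group mean. For Tnni2, Tnnc2 and Mybpc2 the mAktDKO mice lie below all control mice (for Mybpc2 not with library totals), and for the slow isoforms the groups overlap, with mAktDKO mouse 3 the lowest of its group.

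The troponin subunits were compared gene by gene. Tnni2 (chromosome 7, 142441808 to 142444410 of mm10), the fast troponin I that blocks actin at rest, was at 2458, 2068 and 2516 CPM in mAktDKO mice 1 to 3 and at 4083, 3289 and 3259.8 CPM in control mice 2 to 4. All 3 mAktDKO mice lay below the lowest control, a 1.51-fold lower level (log2 fold change -0.59, standard error 0.13, adjusted p = 0.0557 by edgeR, and adjusted p = 0.00012 by DESeq2). Tnnc2 (chromosome 2, 164777161 to 164779967), the fast calcium sensor, was at 3452, 2948 and 3413 CPM and at 4960.5, 4469.6 and 4229 CPM in the same order. The groups were again apart (log2 fold change -0.48, standard error 0.11, adjusted p = 0.0608 by edgeR, and adjusted p = 0.000477 by DESeq2). Tnnt3, the fast troponin T and per unit of length the most abundant of the 3 fast troponins, was at 7323, 7443 and 8312 CPM against 8925, 8462 and 8235 CPM, where mAktDKO mouse 3 lay within the range of the controls (log2 fold change -0.15, standard error 0.10, adjusted p = 0.384). The fitted difference was therefore larger for the fast inhibitory and calcium-binding subunits than for the tropomyosin-binding one, though the difference between these changes was not tested.

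Slow troponins were present at a small fraction of these levels. Tnni1 (chromosome 1, 135779434 to 135810989), the slow troponin I, was at 27.96, 33.5 and 16.7 CPM with mAktDKO and at 10.3, 21.2 and 12.6 CPM in controls. Mice 1 and 2 of the mAktDKO group lay above all controls and mouse 3 lay between control mice 4 and 3 (log2 fold change 0.83, standard error 0.30, adjusted p = 0.141). Tnnc1, the troponin C of slow and cardiac muscle, was at 36.97, 40.5 and 19.1 CPM against 15.03, 31.6 and 22.3 CPM, again with mAktDKO mouse 3 inside the control range (log2 fold change 0.49, standard error 0.31, adjusted p = 0.344). Tnnt1, the slow troponin T, was at 61.4, 66.6 and 35.9 CPM against 33.9, 52.6 and 34.6 CPM (log2 fold change 0.44, standard error 0.24, adjusted p = 0.285). For each of these 3 genes control mouse 3 was the highest control, and with single mice left out the log2 fold changes went from 0.60 to 1.18, 0.26 to 0.79 and 0.27 to 0.67.

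The promoters of the slow Tnni1 and Tnnc1 and of the fast Tnnc2 are shown because Tnnc1 and Tnnc2 are the slow and fast version of 1 subunit with estimates in opposite directions, and Tnni1 had the highest estimate of the 54. Tnni2 was not matched to a window. They are 300-base windows from RefSeq (GRCm38.p6) that end 50 bases into the transcript, written 5′ to 3′ on the strand of the gene, with each E-box (CANNTG, the letters bound by MyoD-family and other helix-loop-helix factors) in capitals.
Tnni1: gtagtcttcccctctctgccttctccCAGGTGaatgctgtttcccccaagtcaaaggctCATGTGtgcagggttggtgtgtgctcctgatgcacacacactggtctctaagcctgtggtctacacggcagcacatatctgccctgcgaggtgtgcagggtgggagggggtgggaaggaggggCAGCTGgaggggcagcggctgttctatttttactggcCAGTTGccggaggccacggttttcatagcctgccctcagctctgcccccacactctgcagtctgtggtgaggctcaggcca
Tnnc1: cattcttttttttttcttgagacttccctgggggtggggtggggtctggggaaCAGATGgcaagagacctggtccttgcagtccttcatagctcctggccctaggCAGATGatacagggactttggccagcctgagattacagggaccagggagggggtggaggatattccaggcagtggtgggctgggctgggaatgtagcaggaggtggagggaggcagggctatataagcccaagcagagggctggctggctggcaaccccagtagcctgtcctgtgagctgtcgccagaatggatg
Tnnc2: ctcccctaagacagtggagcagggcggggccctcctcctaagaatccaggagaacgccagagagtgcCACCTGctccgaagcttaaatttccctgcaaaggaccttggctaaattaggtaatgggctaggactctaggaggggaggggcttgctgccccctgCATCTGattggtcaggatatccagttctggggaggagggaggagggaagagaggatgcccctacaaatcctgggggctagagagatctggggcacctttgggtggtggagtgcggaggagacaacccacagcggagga
The windows lie at chr1:135799171-135799470 (plus strand), chr14:31208062-31208361 (plus strand) and chr2:164779685-164779984 (minus strand). They hold 4, 2 and 2 E-boxes, on either strand. RefSeq gives Tnni1 a further start, whose window (chr1:135799261-135799560) overlaps the one printed and holds 2. RefSeq promoters were found for 41 of the 54 members, with 47 windows in all since some genes have a further start. Of these windows 40 (85.1%) hold CANNTG, against 72.3% of the 32817 windows of the genome. The form CAGCTG, which is contained in CANNTG, is in 19 of them (40.4%) and in 16.3% of all windows. TATAAA, on either strand, is in 8 (17%) and in 13.6% of all. The MEF2 element is in 5 (10.6%) and the CArG box, the letters bound by serum response factor, in 6 (12.8%), against 3.19% and 1.63% of all windows. CATTCC, the MCAT element, is on either strand in 13 (27.7%) and in 14.7% of all. Where windows of a gene overlap, a shared site counts in each, as for the CArG box of Ldb3 and the MCAT element of Flnc. None of the 3 windows printed holds TATAAA, a MEF2 element or a CArG box in the letters searched, and that of Tnnc1 holds 1 MCAT element, left in lower case. These matches describe the sequence alone.

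Within each mouse the slow and the fast version of a subunit were set against each other as the log2 ratio of their counts (0.5 added), a measure that does not depend on how the library is scaled. For troponin I the ratio of Tnni1 to Tnni2 was -6.46, -5.95 and -7.24 in the mAktDKO mice and -8.62, -7.28 and -8.01 in the control mice. The groups did not overlap, and the means of -6.55 ± 0.65 and -7.97 ± 0.67 (SD, n = 3 each) differed by 1.42. The gap between the nearest mice of the 2 groups, mAktDKO mouse 3 and control mouse 3, was small beside the spread within either group. For tropomyosin the ratio of Tpm3 to Tpm1 was -5.59, -5.29 and -6.06 against -7.02, -6.29 and -6.62, also without overlap, a difference of 1.00 between the means. For troponin C (Tnnc1 to Tnnc2) the difference was 0.95 and for troponin T (Tnnt1 to Tnnt3) 0.57, and in both the groups overlapped. In both, mAktDKO mouse 3 (-7.48 and -7.86) lay within the range of the controls, and the size of the difference depended on single mice. The light chain ratios differed by 0.58 for Myl3 to Myl1 and by 0.13 for Myl2 to Mylpf, with overlap, and the sign of the latter changed when single mice were left out. In the ratio of Mybpc1 to Mybpc2 the difference had the opposite sign (-0.27, overlapping). These ratios are given as a description, with no test. Counted per length of the longest transcript, Tnni1 made up 0.44% to 1.07% of the Tnni1 and Tnni2 pair in the mAktDKO mice and 0.169% to 0.428% in the control mice. Tpm3, whose count includes non-muscle forms, made up 1.90% to 3.20% and 0.985% to 1.63% of the Tpm3 and Tpm1 pair.

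**Figure D3:**
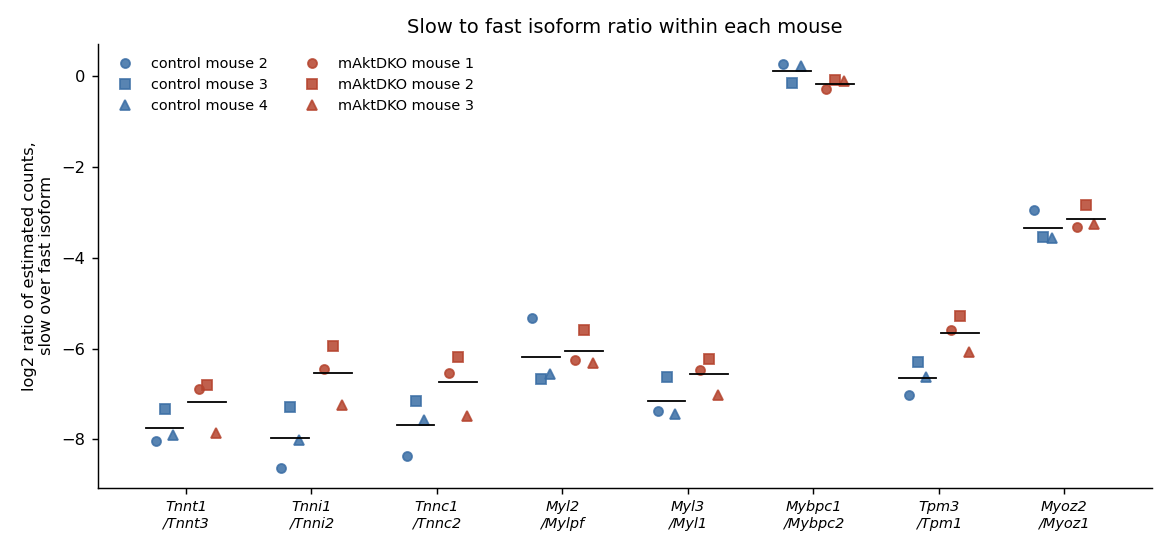
Log2 ratio of the estimated counts of the slow over the fast isoform of 8 subunits (vertical axis), with 1 point per mouse and a line at the group mean. The groups are separate for Tnni1 over Tnni2 and for Tpm3 over Tpm1 and overlap for the other pairs.

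Of the 16 thin filament genes 10 had an estimate below 0 (median -0.11 on the log2 scale), or 7 with library totals (median 0.025). Tpm1 (chromosome 9, 67022590 to 67049406), the main fast alpha-tropomyosin, was at 6054, 5602 and 6047 CPM with mAktDKO and at 7478, 7323 and 7500.5 CPM in controls. The controls differed among themselves by a factor of only 1.02, and every mAktDKO mouse lay below them (log2 fold change -0.33, standard error 0.095, adjusted p = 0.0908 by edgeR, and adjusted p = 0.00303 by DESeq2). Tpm3 (chromosome 3, 90072649 to 90100902), which encodes slow tropomyosin and also the non-muscle forms that this count per gene cannot separate, was at 126, 143 and 90.3 CPM against 57.5, 93.8 and 76.1 CPM. Here mAktDKO mice 1 and 2 lay above all controls and mouse 3 lay just below control mouse 3 (log2 fold change 0.66, standard error 0.20, adjusted p = 0.102 by edgeR, and adjusted p = 0.00938 by DESeq2). Tmod4, the skeletal tropomodulin that caps the pointed end of actin, was at 175, 155 and 190.1 CPM and 228, 208 and 191 CPM (log2 fold change -0.27, standard error 0.10, adjusted p = 0.157), where the highest mAktDKO mouse and the lowest control were almost level. Acta1, the skeletal alpha-actin and per length the most abundant member, had a log2 fold change of -0.18, and its 3 mAktDKO mice, between 19312 and 20551 CPM, lay below the controls, between 22091 and 23149.8 CPM. With library totals the Acta1 groups overlapped. Neb, which encodes nebulin, the ruler of thin filament length, had means of 19589.7 ± 2551 with mAktDKO and 19589 ± 216 CPM in controls (SD, n = 3 each), a log2 fold change of 0.0001 with a standard error of 0.12. Tmod1, Lmod2 and Lmod3, which cap the filament or start its growth, had log2 fold changes between -0.12 and -0.062. With single mice left out, Lmod2 went from -0.40 to 0.15 and Lmod3 from -0.19 to -0.03.

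Actc1, the cardiac actin that adult fast fibres make little of, differed too much between mice of 1 group for a comparison. It was at 1457, 847 and 769 CPM with mAktDKO and at 127, 1671 and 339 CPM in controls, so that control mouse 3 was 13.2-fold above control mouse 2. Actc1 and Acta1 encode near-identical proteins, and whether reads were shared between the genes was not tested. The log2 fold change of 0.52 had a standard error of 0.74, the largest of the 54, and ranged from 0.026 to 2.14 when single mice were left out.

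In the thick filament 7 of 8 genes had an estimate below 0 (median -0.32 on the log2 scale), all but Myl3, or 6 with library totals (median -0.18). Myl1 (chromosome 1, 66924295 to 66945404), the fast essential light chain, was at 4798, 4442 and 4635 CPM with mAktDKO and 6196, 5403 and 6583 CPM in controls. No mAktDKO mouse reached the lowest control (log2 fold change -0.39, standard error 0.11, adjusted p = 0.0853 by edgeR, and adjusted p = 0.00383 by DESeq2). Every mAktDKO mouse carries the Cre insertion at this very gene and no control does, so a change from the insertion and a change from the loss of Akt cannot be told apart for Myl1. The counts also sum its transcripts from 2 promoters, of which the upstream one gives Mlc1f and drives Cre, and this window (chr1:66945007-66945306, minus strand, RefSeq, GRCm38.p6) is printed for that reason, with an E-box and a TATAAA on the opposite strand in capitals.
Myl1: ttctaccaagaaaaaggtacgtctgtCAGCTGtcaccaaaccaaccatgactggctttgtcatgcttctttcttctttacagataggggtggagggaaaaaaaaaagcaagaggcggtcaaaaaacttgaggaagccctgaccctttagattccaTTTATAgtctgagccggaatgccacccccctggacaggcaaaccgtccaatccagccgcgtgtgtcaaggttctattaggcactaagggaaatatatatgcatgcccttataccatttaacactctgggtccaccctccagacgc

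Mybpc1 (chromosome 10, 88518279 to 88605152), the slow-type myosin-binding protein C that fast fibres also make, was at 3158, 3309 and 3633 CPM and 5056, 4299.8 and 5087 CPM. It lay lower in all 3 mAktDKO mice (log2 fold change -0.52, standard error 0.11, adjusted p = 0.0557 by edgeR, and adjusted p = 0.000104 by DESeq2), so this slow-type gene did not go the way of the slow troponins. Mybpc2, its fast counterpart, was at 3848, 3514 and 3923 CPM against 4204, 4799 and 4345 CPM (log2 fold change -0.24, standard error 0.10, adjusted p = 0.181), without overlap under TMM scaling but overlapping with library totals. Mylk2, the kinase that phosphorylates the fast regulatory light chain, was at 385, 349.7 and 477 CPM against 747, 469 and 519.7 CPM. Its mAktDKO mouse 3 lay above control mouse 3 (log2 fold change -0.52, standard error 0.18, adjusted p = 0.134), and leaving out control mouse 2 gave -0.29.

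The regulatory light chains overlapped between the groups. Mylpf, the fast regulatory light chain, was at 4188, 3784 and 3980.2 CPM with mAktDKO and 3925, 5373 and 4424 CPM in controls, with control mouse 3 standing above the rest (log2 fold change -0.20, standard error 0.13, adjusted p = 0.355, and -0.069 without that mouse). Myl2, the slow and cardiac regulatory light chain, was at 54.7, 78.1 and 49.7 CPM and 98.3, 52.5 and 46.6 CPM (log2 fold change -0.11, standard error 0.27, adjusted p = 0.822). Control mouse 2 was the highest of all 6 mice for Myl2, although it was the lowest for Tnni1, Tnnc1, Tpm3 and Tnnt1, and without it the log2 fold change of Myl2 turned to 0.30. Myl3, the slow essential light chain, was at 54.1, 59.7 and 35.9 CPM and 37.4, 54.8 and 37.95 CPM (log2 fold change 0.20, standard error 0.20, adjusted p = 0.558), and its log2 fold change went from 0.053 to 0.40 when single mice were left out. Within the slow isoforms Myl2 thus had its own order of mice among the controls. Mybph had a log2 fold change of -0.65 with a standard error of 0.37, and control mouse 3, at 92.9 CPM, lay far above the other mice, between 28.99 and 42.4 CPM. Without that mouse the estimate was 0.00357.

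In the M-band, which holds thick filaments in register, all 4 genes and titin had a lower estimate (median -0.42 on the log2 scale, and -0.28 with library totals). Myom3 (chromosome 4, 135759715 to 135815564), the myomesin of slow and intermediate fibres, was at 119, 138 and 146 CPM with mAktDKO and 268, 166 and 209.9 CPM in controls. Its groups were apart (log2 fold change -0.68, standard error 0.16, adjusted p = 0.0653 by edgeR, and adjusted p = 0.000906 by DESeq2), and the log2 fold change was -0.49 without control mouse 2. Obsl1 (chromosome 1, 75479310 to 75506452), a cytoskeletal protein that links the M-band to titin, was at 83.3, 66.6 and 74.9 CPM against 98.9, 114 and 93.5 CPM (log2 fold change -0.45, standard error 0.11, adjusted p = 0.0691 by edgeR, and adjusted p = 0.00904 by DESeq2). Myom1, the myomesin of all striated fibres, was at 1455, 1424 and 1614 CPM against 2369, 1804 and 1819 CPM (log2 fold change -0.42, standard error 0.13, adjusted p = 0.101), with -0.28 when control mouse 2 was left out. Myom2, the myomesin of fast fibres, differed least of the 3 (log2 fold change -0.19), without overlap except with library totals. Ttn was at 100114, 100366 and 139245 CPM and 152176, 129442 and 147161 CPM (log2 fold change -0.34, standard error 0.17, adjusted p = 0.247), with a range of -0.53 to -0.26 when single mice were left out. For Ttn, mAktDKO mice 1 and 2 lay below all controls, whereas mouse 3 lay above control mouse 3.

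Z-disc genes, whose products anchor actin at the ends of the sarcomere, included genes whose groups were apart and genes close to level, with 10 of 13 estimates below 0 (median -0.11 on the log2 scale), or 5 with library totals (median 0.024). Tcap (chromosome 11, 98383811 to 98384953), the telethonin that caps titin, was at 570.3, 506 and 679 CPM with mAktDKO and 1541, 819.8 and 815 CPM in controls. Its log2 fold change was the lowest of all 54 (log2 fold change -0.86, standard error 0.24, adjusted p = 0.0875), and was -0.48 without control mouse 2, which was 1.88 times the next control. Flnc (chromosome 6, 29433256 to 29461883), filamin C, which joins the Z-disc to the membrane, was at 825, 1019 and 1146 CPM against 2038, 1253 and 1513 CPM. The groups did not overlap (log2 fold change -0.68, standard error 0.18, adjusted p = 0.0822 by edgeR, and adjusted p = 0.00158 by DESeq2), with -0.47 left without control mouse 2. Des, which encodes desmin, the intermediate filament around the Z-disc, was at 1875, 1730.1 and 2018 CPM against 3331, 2218 and 2332 CPM (log2 fold change -0.49, standard error 0.16, adjusted p = 0.115), and at -0.28 without control mouse 2. In these 3 genes control mouse 2 was the highest, and the other controls still lay above every mAktDKO mouse.

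The calsarcins, which tether calcineurin to the Z-disc, had estimates from -0.37 to -0.06 on the log2 scale, and whether these differ was not tested. Myoz3, a fast-fibre calsarcin, was at 176, 147 and 186 CPM against 227, 215 and 214 CPM (log2 fold change -0.37, standard error 0.10, adjusted p = 0.0822). Myoz1, the main fast one, was at 788, 773 and 879 CPM against 1048, 879 and 927 CPM (log2 fold change -0.23, standard error 0.10, adjusted p = 0.204), with mAktDKO mouse 3 and control mouse 3 almost equal. Myoz2, the slow one, was at 78.3, 109 and 92.6 CPM against 136, 76.02 and 78.6 CPM (log2 fold change -0.06, standard error 0.22, adjusted p = 0.889), with overlap and a log2 fold change of 0.27 without control mouse 2. The alpha-actinins, which crosslink actin in the Z-disc, were close to level. Actn3, the form restricted to fast fibres, was at 4523, 4159.7 and 4756 CPM against 4748, 4919.8 and 4847 CPM (log2 fold change -0.11, standard error 0.10, adjusted p = 0.496, and -0.17 to -0.06 when single mice were left out), and Actn2, the form of all fibres, had a log2 fold change of -0.0022 with a standard error of 0.12 and went from -0.076 to 0.13 in the same way. Ldb3, Myot, Smpx and the barbed-end cappers Capza2 and Capzb lay between -0.11 and 0.085. Myot, which encodes myotilin, went from -0.33 to 0.18 over the fits without 1 mouse. Capza2 went from -0.022 to 0.10 and Capzb from -0.090 to -0.0076 in the same way. Ldb3 went from -0.16 to -0.041 and Smpx from 0.036 to 0.13.

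Among genes of load sensing and repair, Csrp3, Ankrd2 and Xirp1 varied widely between mice of 1 group. None of Ankrd1, Ankrd2, Csrp3, Nrap, Xirp1 and Xirp2 had an unadjusted p under 0.05, and their smallest adjusted p was 0.258. Csrp3, the muscle LIM protein, was at 33.2, 48.2 and 53.00 CPM against 123, 39.8 and 48.8 CPM, and its log2 fold change went from -0.66 to 0.014 without control mouse 2. Ankrd2, a stretch-responsive partner of titin, was at 31.1, 55.2 and 47.5 CPM against 109.9, 46.6 and 36.4 CPM, with -0.53 and 0.10 in the same order. Control mouse 2 was the highest of the 6 mice for both. Xirp1, which encodes a protein of damaged and remodelling fibres, was at 280.2, 338 and 639 CPM against 299.9, 251 and 325 CPM, where mAktDKO mouse 3 stood above every other mouse (log2 fold change 0.52, standard error 0.27, and 0.066 without that mouse). Xirp2, its relative, varied little, by 1.14-fold among controls and 1.15-fold among mAktDKO mice, and its groups did not overlap except with library totals (log2 fold change -0.18, adjusted p = 0.317, and -0.11 without control mouse 2).

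Genes that fold myosin, stabilise the thin filament or mark proteins for turnover were all on the lower side, by between -0.56 and -0.16 (median -0.30 on the log2 scale, and -0.17 with library totals, all 6 still below 0). Trim54 (chromosome 5, 31116712 to 31137630), MuRF3, a ubiquitin ligase of the sarcomere and microtubules, was at 135, 123 and 142 CPM with mAktDKO and 250.2, 164 and 177 CPM in controls. The groups were apart (log2 fold change -0.56, standard error 0.15, adjusted p = 0.0816 by edgeR, and adjusted p = 0.00553 by DESeq2), also without control mouse 2 (-0.36). Trim55, its relative MuRF2, was at 41.1, 34.9 and 40.9 CPM against 42.8, 51.8 and 50.7 CPM (log2 fold change -0.31, standard error 0.11, adjusted p = 0.127). Unc45b, the myosin chaperone, was at 187, 165 and 212 CPM against 283, 221 and 227 CPM (log2 fold change -0.37, standard error 0.12, adjusted p = 0.126). Klhl40, which keeps nebulin and Lmod3 stable, was at 108, 98.8 and 111 CPM against 143, 122 and 126 CPM (log2 fold change -0.30, standard error 0.091, adjusted p = 0.104). For all 4 the highest mAktDKO mouse lay below the lowest control, though not for Trim55 with library totals. Of the 6 genes of this role, 5 (83.3%) were apart on the lower side, against 16.6% of all genes. With library totals these were 3 (50.0%), against 6.92% of all genes. Klhl41 and Smyd1 had log2 fold changes of -0.17 and -0.16, or -0.10 and -0.13 without control mouse 2.

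**Figure D4:**
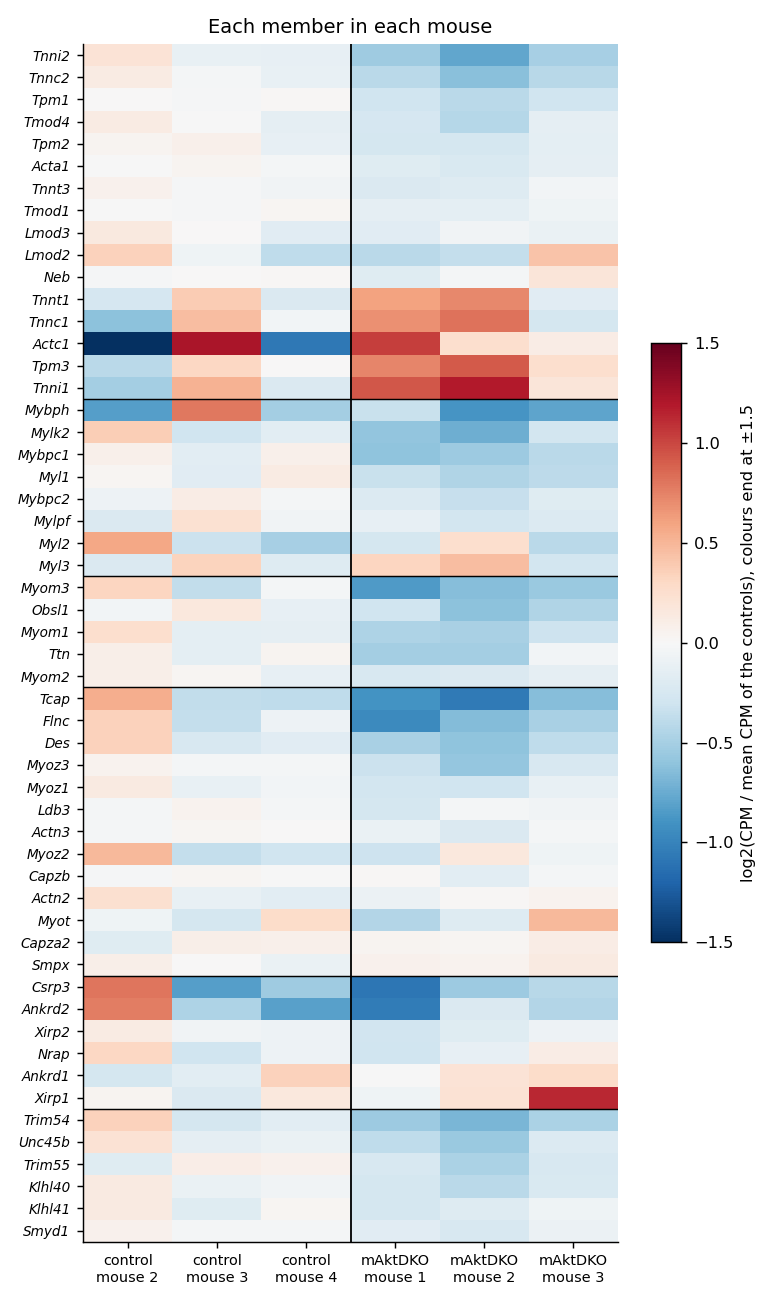
Log2 ratio of the CPM of each of the 54 genes (rows, by role as in the plot of fold changes, with lines between roles) to the mean of the control mice, in each mouse (columns), on a colour scale that ends at ±1.5. Control mouse 2 stands out in Tcap, Csrp3, Ankrd2, Myl2 and Myoz2, control mouse 3 in Actc1 and Mybph, and mAktDKO mouse 3 in Xirp1.

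Single mice moved groups of members. Among the 7507 genes with a control mean of at least 10 CPM, control mouse 2 exceeded 1.5 times the next control in 68 genes (0.906%), and 5 of the 54 members (9.26%) were among them, namely Tcap, Csrp3, Ankrd2, Myl2 and Myoz2. In the mAktDKO group, mouse 3 was the highest of the 3 for 35 of the 54 members (64.8%) against 40.9% of the 7507 genes, and it was the lowest for each of the 6 slow isoforms. The median ratio of the highest to the lowest control mouse was 1.25 for members and 1.19 for all of these genes. Slow isoforms and fat cell markers (Adipoq, Plin1, Cfd, Lep and Fabp4) had the same order within the mAktDKO mice. The markers summed to 275, 309.6 and 178 CPM in mAktDKO mice 1 to 3, and all 5 had an unadjusted p under 0.05 on the higher side, as had 11.4% of all genes. None of the 5 was below an adjusted p of 0.05 by edgeR or of 0.01 by DESeq2. In the control mice the orders differed, since the fat cell markers were at 162, 153 and 204 CPM in mice 2 to 4. Control mouse 3, with the lowest of these sums, was the highest control for 5 of the 6 slow isoforms. Within the mAktDKO mice, mouse 3 was also the lowest in the summed endothelial, leukocyte, Schwann cell, smooth muscle and globin markers, with mouse 1 the highest. In the summed tendon and progenitor markers mouse 3 was the highest. The part of fat tissue or of these other cells in the slow isoform levels was not tested.

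Levels were also compared between genes as CPM per kilobase of the longest protein-coding transcript. In the control mice Acta1 led at 15601 ± 373 (SD, n = 3), followed by Tnnt3 at 7915 ± 326. Tnnc2 (6504 ± 533), Mylpf (5972 ± 960.5) and Myl1 (5601 ± 556) came next and could not be ordered given their SD. Tnni2 stood at 4614 ± 608 and could not be ordered against Mylpf and Myl1 either. Titin, the largest by counts, was at 1338 ± 112 per kilobase. The slow isoforms ranked between 37 and 54 of the 54 members, from Myl2 at 74.01 ± 31.8 and Myl3 at 46.3 ± 10.5 down to Tnni1 at 12.8 ± 4.95, which could not be ordered against Ankrd1 at 13.6 ± 3.17, with Tnnt1, Tpm3 and Tnnc1 within each other's SD. In the mAktDKO mice Tnnc2 was at 4673 ± 401 and Tnni2 at 3056 ± 318, against 7129 ± 500.5 for Tnnt3.

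A further 52 sarcomere genes were read from the same fit, of which 48 passed the filter. None was called at an adjusted p under 0.01 by edgeR, 4 were below 0.05, all lower (1.18% of all genes, 0.915% lower), and 23 had an unadjusted p under 0.05, 17 lower and 6 higher (24.5% of all genes, 13.1% lower and 11.4% higher). DESeq2 called 8 at 0.01 (3.55% of all genes), all lower, among them Myh1, Myh3, Cryab and Mylk4. The 6 higher genes were Myh7, Myl4, Palld, Tmod3, Capza1 and Actn4, none with an adjusted p under 0.05 by edgeR or under 0.01 by DESeq2. Palld, Tmod3, Capza1 and Actn4, which non-muscle cells also make, had log2 fold changes of 0.33, 0.32, 0.31 and 0.29, or 0.23, 0.22, 0.19 and 0.17 without control mouse 2. Myl4, the embryonic and atrial light chain, had one of 0.58 (0.44 without that mouse). Of the 48 genes 18 (37.5%, against 16.6% of all genes) had all 3 mAktDKO mice below the lowest control. Another 5 (10.4%, against 14.6% of all genes) lay higher in every mAktDKO mouse, namely Myl4, Palld, Tmod3, Capza1 and Klhl31. With library totals these counts were 16 (33.3%) and 13 (27.1%), against 6.92% and 26.5% of all genes. Mylk4, a striated muscle kinase of the light chain kinase family, was at 313, 264 and 335 CPM against 575, 545 and 489.6 CPM (log2 fold change -0.82, standard error 0.11, adjusted p = 0.0206). Cryab, the small heat shock protein that guards desmin and titin, was at 208, 226 and 259 CPM against 455, 335 and 349 CPM (log2 fold change -0.72, standard error 0.13, adjusted p = 0.0474). Fhod1, an actin-binding formin, was at 21.4, 18.7 and 24.1 CPM against 40.1, 31.7 and 33.6 CPM (log2 fold change -0.72, standard error 0.13, adjusted p = 0.0466). For these 3 genes the groups did not overlap. Myh3, the embryonic myosin, was at 6.91, 9.29 and 10.01 CPM against 30.3, 16.2 and 18.1 CPM (log2 fold change -1.30, standard error 0.24, adjusted p = 0.0474), also without overlap. With single mice left out, edgeR's adjusted p went up to 0.125 for Mylk4, 0.231 for Cryab and 0.220 for Fhod1 and Myh3. Of the myosin heavy chains, Myh1, a fast one, was at 11522, 12072 and 12327 CPM against 17807, 15999.8 and 17250.3 CPM, and Myh2, of fast oxidative fibres, at 3019, 3463 and 4049 CPM against 9177, 4440.0 and 4624 CPM. Myh4, the fastest, was at 49930.4, 47045 and 52960.4 CPM against 49238, 55567 and 47022 CPM, with overlap. For Myh1 and Myh2 the mAktDKO mice lay below all controls, and control mouse 2 was far above the others for Myh2 (log2 fold change -0.37 without it). The log2 fold changes were -0.018 for Myh4 (adjusted p = 0.944), -0.51 for Myh1 (adjusted p = 0.0539 by edgeR and 1.89e-06 by DESeq2), -0.79 for Myh2 (adjusted p = 0.125) and 0.90 for the slow Myh7 (adjusted p = 0.152). Myh7 was at 525, 637 and 269 CPM with mAktDKO and 168, 368 and 233 CPM in controls, with mouse 3 the lowest of its group as for the slow troponins.

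Markers of cells other than fibres were read beside these results. All 6 tendon markers, 5 of 5 fibro-adipogenic progenitor markers and 5 of 5 tested leukocyte markers had a higher estimate in the mAktDKO mice. So had 4 of 4 Schwann cell markers and 4 of 5 endothelial markers (5 with library totals). None of these markers was called at an adjusted p under 0.05 by edgeR. Of all 12892 genes, 6762 had an estimate above 0, and with library totals the median log2 fold change over all genes was 0.16. DESeq2 called Tnmd (adjusted p = 0.00379) and Fmod (adjusted p = 0.00654) of the tendon list and Dcn (adjusted p = 0.000317) of the progenitor list at 0.01. All 3 were higher, as were 0.936% of all genes it adjusted. Tendon markers summed to 1233 to 1775 CPM with mAktDKO and 943 to 1274 CPM in controls. The sums for progenitors were 15233 to 19728 CPM with mAktDKO and 6391 to 15550.2 CPM in controls, of which the collagen gene Col1a1 made up 92.3% to 96.04%. Control mouse 2 alone gave the low end, the other controls being at 12964 and 15550.2 CPM, and the log2 fold change of Col1a1 was 0.62 with it and 0.31 without it. The other 4 progenitor markers together were at 740.3 to 844 CPM with mAktDKO and 492 to 617 CPM in controls. Leukocyte markers summed to 76.7 to 92.6 CPM with mAktDKO and 56.1 to 76.7 CPM in controls. Schwann cell markers were at 376 to 486 CPM with mAktDKO and 307 to 390.1 CPM in controls, and endothelial markers at 404 to 470.1 CPM with mAktDKO and 334 to 434 CPM in controls. Smooth muscle markers were level, at 197 to 279 CPM with mAktDKO and 224 to 232 CPM in controls, and cardiac markers summed to no more than 20.5 CPM in any mouse. Genes of regenerating or denervated fibres, 7 of 8 of which are in the table, summed to 94.3 to 111 CPM with mAktDKO and 85.1 to 98.1 CPM in controls, and their members differed in direction. Beside the lower Myh3, Myog, a transcription factor of muscle differentiation, lay higher without overlap (log2 fold change 1.06, standard error 0.25, adjusted p = 0.0642 by edgeR, and adjusted p = 0.00349 by DESeq2), as did Chrna1, a subunit of the acetylcholine receptor (log2 fold change 0.42, standard error 0.11, adjusted p = 0.0752 by edgeR, and adjusted p = 0.0584 by DESeq2). Globin genes summed to 146 to 313 CPM with mAktDKO and 109 to 163 CPM in controls, and whether their near-identical copies shared reads was not tested. By edgeR 1 of the 4 (Hbb-bs) was below an adjusted p of 0.05. Hbb-bs had 370, 154 and 146 counts in the mAktDKO mice and 0 in each control, whereas Hbb-bt, its neighbour, had 364, 271 and 142 counts against 189, 180 and 119. The part of these cells in the levels of the members was not tested, and in bulk muscle fewer fibres and less RNA per fibre cannot be told apart.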

How the data were processed

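Total RNA of EDL was depleted of ribosomal RNA and made into strand-specific libraries, and paired-end reads were mapped to mm10 with STAR (2.6.1b in the submitters' processing notes) by the authors. The deposited values are estimated counts per gene that the authors made with RSEM 1.3.1, in which a read that fits several genes is divided among them, not scaled between mice. The annotation and the strand setting of the counting are not given in the sources used here. Control columns bear other numbers than the labelled control mice and stand for their group only.

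Counts were rounded and filtered with filterByExpr (minimum count 10). TMM factors were used, and genotypes were compared by edgeR 4.0.16 (quasi-likelihood, R 4.3.3), adjusted over 12892 genes by Benjamini-Hochberg. The standard error is the size of the log2 fold change over the square root of F. Floors of 3 counts cover counting error only. Positions and lengths are from GENCODE vM21 (GRCm38, the assembly of mm10). The fit was tested on simulated data in which 200 genes were changed 2-fold. At an adjusted p under 0.01 edgeR recovered 157 of them (78.5%) with 1 false call, and DESeq2 146 (73%) with 2. Smaller changes, such as those of the members, were not simulated. Alternatives were other scalings and filters, DESeq2 1.42.0, an adjusted p under 0.05 and leaving out each mouse.

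The members and lists were chosen with earlier results of these data known. Values in every mouse are given for the 12 fast and slow isoforms, their partners in the ratios, Akt1, Akt2, every other member with an unadjusted p under 0.05, and further sarcomere genes with an adjusted p under 0.05 or encoding Myh1, Myh2, Myh4 or Myh7. Actc1, Ttn, Csrp3, Ankrd2, Xirp1, Mybph, Myot, Xirp2, the markers given singly and the further sarcomere genes that were higher were named after their values were seen.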

Additional observations from a re-analysis of the deposited data

How the results depend on the processing

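No paired analysis was possible because the groups are separate animals, no source used here ties a number to a shared litter, batch or day, and the control columns are not numbered as the labels are. Over all genes the number called was 3 in edgeR's test, 32 with no filter, 152 at an adjusted p under 0.05 and 341 with DESeq2, and from 0 to 8 when 1 mouse was left out. Each of the 3 fits without an mAktDKO mouse had 0 calls by edgeR, with 2441, 1871 and 2794 genes at an unadjusted p under 0.05. At an adjusted p under 0.05, leaving out 1 mouse gave from 3 genes (without mAktDKO mouse 2) to 388 (without control mouse 4). The number of members called at an adjusted p under 0.01 was 0 except with DESeq2 (10). At 0.05 edgeR had 0 members, 3 with no filter, 2 with at least 10 counts in every mouse and 1 without control mouse 4. Over all genes the same 4 fits had 152, 381, 264 and 388. For the further sarcomere genes the number called at 0.01 was 0, with 1 under no filter, 4 at an adjusted p under 0.05 and 8 with DESeq2. The cause of the difference between the tools was not tested. Scaling by library totals moved the median over all genes from 0.017 to 0.16 (log2) and that of the fast isoforms from -0.22 to -0.086, and members minus all genes was -0.20 before and -0.21 after. With library totals Actn3 was at 0.024, Myl2 at 0.042 and Myoz2 at 0.088. The log2 fold change of Myl2 was from -0.34 to 0.30 and that of Myoz2 from -0.21 to 0.27 when 1 mouse was left out. The difference in the ratio of Myl2 to Mylpf was from -0.12 to 0.56. Akt2 was from -1.63 to -1.43, with an adjusted p of up to 0.0208 without an mAktDKO mouse. Without single mice the median of the slow isoforms was from 0.28 to 0.73 and that of the fast isoforms from -0.29 to -0.17.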

Other observations

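Control mouse 3 was the highest of the 6 mice for Actc1, at 1671 CPM, and for Mybph, at 92.9 CPM, whereas control mouse 2 was the lowest for Actc1, at 127 CPM. Control mouse 2 had the highest Tcap (1541 CPM), Csrp3 (123 CPM), Ankrd2 (109.9 CPM) and Myh2 (9177 CPM against 4440.0 and 4624 CPM in the other control mice). Xirp1 in mAktDKO mouse 3 (639 CPM) was the highest of the 6 mice, and so was Myot there (1489 CPM).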
